A study of Mus musculus with 18 samples.

Results

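Transcript levels of 6 regulators of fat cell identity were followed across libraries of whole epididymal white adipose tissue (eWAT), the fat pad beside the mouse epididymis. Pparg, Rxra, Cebpa and Cebpb encode transcription factors that build and maintain fat cells, and Ncor1 and Nrip1 encode corepressors of nuclear receptors. The 6 genes were taken by symbol out of 16452 genes in the table of read counts, and all 6 were measured. They had been chosen by their levels across the groups of this study, which were known, so those levels are given as a description, without a test. The mice were male C57BL/6 labelled wild type, of a generation called Fm, and the groups differ by what was microinjected into the zygote: a negative control (5 libraries), miR-let-7d (6 libraries) or miR-let-7e (6 libraries). All groups ate chow from weaning to week 6 and then the diet labelled LFD to week 15, and the age label gives 24 weeks, which the labels do not reconcile. A control replicate numbered 5 is not analysed here. The labels number the samples but do not say whether each is a separate animal, so p-values measure the spread between these samples. By its title, the series asks about let-7 in mitochondrial dysfunction of fathers and in metabolic decline passed on to offspring.

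Total counts ran from 12717365 to 28972306 per library, and the smallest count behind a value of any of the 6 genes was 827 reads (Cebpb). Library identifiers form an early series, which holds replicates 1 and 2 of let-7d and of let-7e, and a late series of the 13 other libraries, and the early series holds no control. All 8 fat cell markers, among them Adipoq, Plin1 and Fabp4, were measured in every group, and their summed level was 28547 to 50093 CPM (counts-per-million after scaling by TMM) in controls, 22362 to 44179 CPM with let-7d and 35615 to 52022 CPM with let-7e. Control 3 held smooth muscle markers at 13185 CPM and markers of vas deferens and epididymis at 17464 CPM, and control 6 held spermatid transcripts. Epithelial markers stood at 609 CPM in let-7d 1, 373 CPM in control 3 and 260.3 CPM in let-7d 5. In bulk tissue of this kind, fewer cells of a type and less RNA per cell cannot be told apart.

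PPARG is the nuclear receptor that switches on the lipid storage programme, and it binds DNA as a heterodimer with RXRA, the partner of many other nuclear receptors. In the classical order of adipogenesis CEBPB is induced early and activates Pparg and Cebpa, which then sustain each other in the mature fat cell. NCOR1 carries histone deacetylase HDAC3 to nuclear receptors that have no activating ligand, and NRIP1 (RIP140) binds nuclear receptors and represses oxidative genes in white fat.

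The injected microRNAs are of 1 family, and their sequences are shown because the question of direct targeting turns on the seed. In the RefSeq annotation of GRCm38.p6 the mature let-7d lies on chromosome 13, bases 48536078 to 48536099 of the minus strand, and let-7e on chromosome 17, bases 17830366 to 17830387 of the plus strand. They read, 5′ to 3′, with the seed (bases 2 to 8) in capitals:
mmu-let-7d-5p: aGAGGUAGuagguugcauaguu
mmu-let-7e-5p: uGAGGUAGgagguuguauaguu
The seeds were identical, and the sequences differed outside the seed at A1U, U9G and C16U, counted from the 5′ end with the base of let-7d given before the position. Matches to the seed were searched as CTACCTC or TACCTCA on the sense strand of the longest annotated 3′ UTR. None of the 6 genes held either run of letters there, in UTRs of 204 bases (Pparg), 3269 bases (Rxra), 1555 bases (Cebpa), 506 bases (Cebpb), 2049 bases (Ncor1) and 3782 bases (Nrip1). Of 14171 measured genes with a 3′ UTR, 2365 (16.7%) held at least 1 match. The absence says only that these letters are not in these windows.

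Per kilobase of the longest transcript, Cebpa was the most abundant of the 6, at 506 ± 122 CPM per kb (SD, n = 17). Pparg followed at 95.5 ± 17.0, Rxra at 59.9 ± 11.9, Cebpb at 41.4 ± 11.1, Ncor1 at 19.5 ± 4.29 and Nrip1 at 11.9 ± 3.92 CPM per kb. Across libraries the ranges of neighbours in this order overlapped, apart from Cebpa (255 to 702 CPM per kb) and Pparg (55.3 to 132 CPM per kb). Such ranges do not give the order of the genes within each library. With the union of all exons as the length the order was the same, and Pparg stood at 68.7 ± 12.2 CPM per kb.

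**Figure D1:**
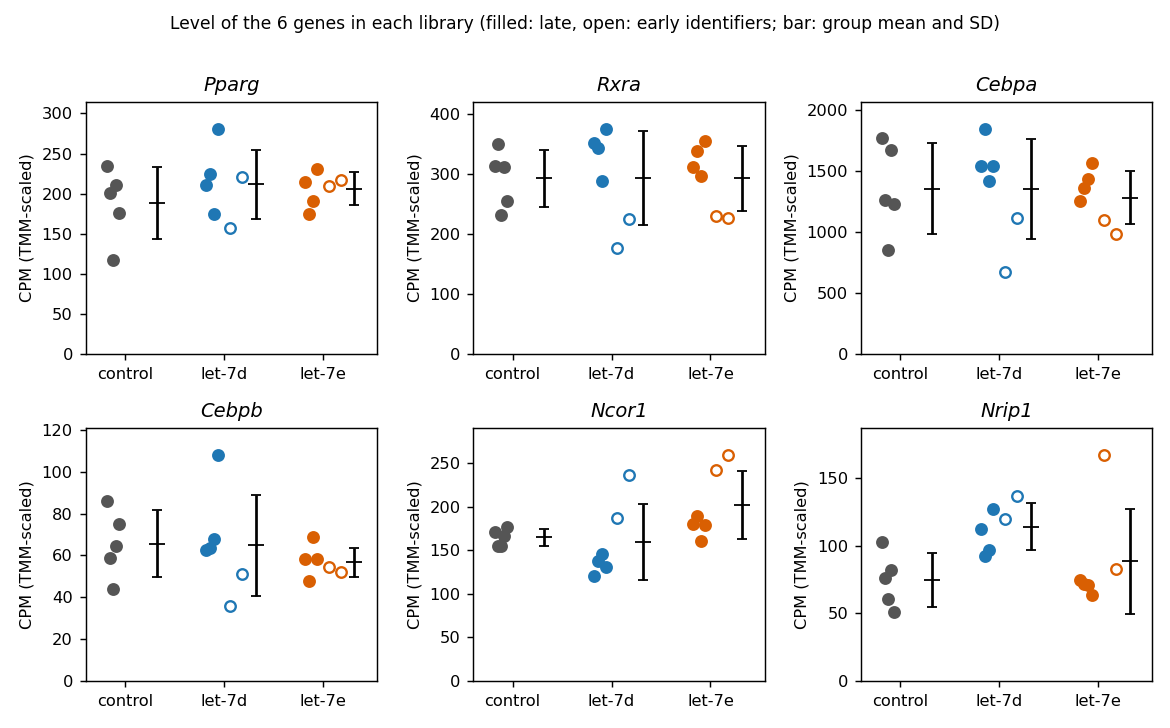
CPM (TMM-scaled, linear axis from 0) of the 6 genes in each of the 17 libraries by group; filled points are late and open points early identifiers, and the bar beside each group is its mean with the SD. The open points of Rxra and Cebpa lie under the filled ones of the same group, those of Ncor1 lie above them, and Nrip1 has a lone high point at 167 CPM in let-7e 1.

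Pparg (chromosome 6, bases 115360951 to 115490399, plus strand, GRCm38; ENSMUSG00000000440.12) stood at 235, 201, 118, 211 and 176 CPM in control replicates 1, 2, 3, 4 and 6. With let-7d it ran from 158 to 281 CPM with a median of 216, and with let-7e from 175 to 231 CPM with a median of 212. The groups overlapped almost wholly, and the lowest value was that of control 3, the library with vas deferens and smooth muscle transcripts. The means were 188 ± 44.9 CPM in controls (SD, n = 5), 212 ± 42.9 CPM with let-7d (SD, n = 6) and 206 ± 20.1 CPM with let-7e (SD, n = 6). In the fit with a term for the identifier series, the log2 fold change was 0.19 (SE 0.173) for let-7d and 0.16 (SE 0.175) for let-7e against control, each about as large as its error. Without the 4 libraries that hold transcripts of neighbouring organs or epithelium, the let-7e value was -0.05.

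Rxra (chromosome 2, bases 27676440 to 27762957, plus strand; ENSMUSG00000015846.15), the heterodimer partner, stood at 314, 351, 233, 313 and 255 CPM in the controls. With let-7d it ran from 177 to 376 CPM with a median of 316, and with let-7e from 227 to 356 CPM with a median of 305. The group means were nearly the same, at 293 ± 48.1, 294 ± 78.7 and 294 ± 54.1 CPM, but within each injected group the replicates 1 and 2 were the lowest. The log2 fold changes against control were 0.17 (SE 0.12) with let-7d and 0.20 (SE 0.121) with let-7e.

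Cebpa (chromosome 7, bases 35119293 to 35121928, plus strand; ENSMUSG00000034957.10), which with Pparg maintains the mature fat cell, ranked 68 by mean CPM among all genes. It stood at 1766, 1258, 850.1, 1673 and 1226 CPM in the controls. With let-7d it ran from 670.3 to 1844 CPM with a median of 1477, and with let-7e from 980 to 1560.1 CPM with a median of 1305. Its means of 1355 ± 371, 1354 ± 409 and 1281 ± 215 CPM differed by far less than the spread within a group. The log2 fold changes against control were 0.16 (SE 0.187) with let-7d and 0.12 (SE 0.191) with let-7e. The 2 lowest libraries of all, let-7d 1 and control 3, were also those with the lowest summed fat cell markers, at 22362 and 28547 CPM. The part of cell content in these values was not tested.

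Cebpb (chromosome 2, bases 167688915 to 167690418, plus strand; ENSMUSG00000056501.3), the early inducer, stood at 86.2, 58.8, 44.1, 64.3 and 75.0 CPM in the controls. With let-7d it ran from 35.6 to 108 CPM with a median of 63.1, and with let-7e from 47.8 to 68.6 CPM with a median of 56.4. It varied 3.04-fold among the let-7d libraries and 1.43-fold among the let-7e libraries, and the ranges overlapped. The log2 fold change against control was 0.09 (SE 0.202) with let-7d and -0.05 (SE 0.209) with let-7e, and both turned sign on leaving out some single libraries (-0.11 to 0.22 and -0.15 to 0.07).

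Ncor1 (chromosome 11, bases 62316426 to 62458541, minus strand; ENSMUSG00000018501.17), the corepressor that recruits HDAC3, was the steadiest of the 6 in the controls, at 171, 155, 155, 166 and 176 CPM. Late let-7d replicates 3 to 6 stood at 120.3, 137, 146 and 131 CPM, all under the lowest control. Late let-7e replicates 3 to 6 stood at 180.5, 189, 160.2 and 179 CPM, within or above the control range and all above the late let-7d libraries. Among the early libraries, let-7d stood at 187 and 236 CPM and let-7e at 242 and 259 CPM, so the order of let-7d and let-7e was the same in both series while the early libraries were the higher ones. The summed level of 5 endothelial markers (Pecam1, Cdh5, Tie1, Kdr and Cldn5) also separated the late libraries, at 1341 to 1559.6 CPM with let-7e and 1213 to 1242 CPM with let-7d, beside 803 to 1406 CPM in controls. Its part in the Ncor1 values was not tested. Means over the late libraries were 164 ± 9.54 CPM in controls (SD, n = 5), 134 ± 10.7 CPM with let-7d (SD, n = 4) and 177 ± 12.0 CPM with let-7e (SD, n = 4).

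With that series term, the log2 fold change of Ncor1 was -0.27 (SE 0.0833) for let-7d against control, 0.08 (SE 0.0827) for let-7e against control and 0.35 (SE 0.0751) for let-7e against let-7d. The groups had been seen when the gene was chosen, so no p-value is attached. Without the series term the let-7d value against control was -0.04 and the let-7e value 0.29. Of all 16452 genes, 0.966% lay wholly lower in the late let-7d libraries than in controls, as Ncor1 did, and 1.25% separated late let-7e from controls, as none of the 6 did. Late let-7e lay wholly above late let-7d in 2.88% of genes, and 0.802% separated let-7e from let-7d in the same direction within both series, as Ncor1 did. Across all genes, edgeR's quasi-likelihood test called 0 genes (0%) in each of the 3 group comparisons at an adjusted p of 0.05, while unadjusted p-values under 0.05 numbered 1676, 1729 and 1097. DESeq2 called 10 (0.0608%), 15 (0.0912%) and 14 genes (0.0851%), and limma-voom called 0 in each.

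Nrip1 (chromosome 16, bases 76287400 to 76373827, minus strand; ENSMUSG00000048490.14), the ligand-dependent corepressor of white fat, had the opposite order of let-7d and let-7e in the late libraries. The controls stood at 103, 76.3, 60.7, 82.1 and 51.1 CPM. The late let-7d libraries stood at 112, 92.1, 96.5 and 127 CPM and the early ones at 119.6 and 137 CPM. The late let-7e libraries stood at 74.9, 71.8, 70.9 and 63.8 CPM and the early ones at 167 and 82.7 CPM. Every late let-7d library was higher than every late let-7e library, a separation shared by 1.94% of all genes, and of the controls replicate 1 reached into the let-7d range.

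The means of Nrip1 were 74.7 ± 20.2 CPM in controls (SD, n = 5), 114 ± 17.6 CPM with let-7d (SD, n = 6) and 88.5 ± 39.0 CPM with let-7e (SD, n = 6). Among the late libraries alone let-7d stood at 107 ± 15.9 CPM and let-7e at 70.3 ± 4.69 CPM (SD, n = 4 each). The log2 fold change was 0.43 (SE 0.202) for let-7d against control, 0.01 (SE 0.207) for let-7e against control and -0.42 (SE 0.185) for let-7e against let-7d. On leaving out each library in turn these ranged from 0.33 to 0.58, from -0.09 to 0.16 and from -0.61 to -0.34. The comparisons share the control or the let-7d libraries, so the values are not independent of each other.

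**Figure D2:**
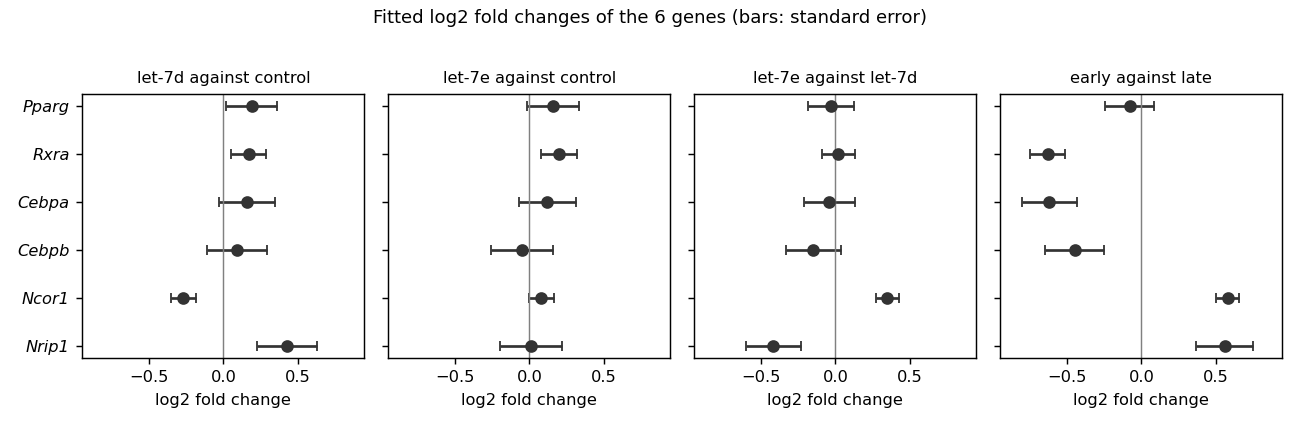
Fitted log2 fold changes (points) with standard errors (bars) of the 6 genes in the 3 group comparisons and in early against late libraries. Against control and against each other, Ncor1 (-0.27, 0.08 and 0.35) and Nrip1 (0.43, 0.01 and -0.42) lie farthest from 0 where let-7d is involved; in early against late, Rxra and Cebpa lie at -0.63 and -0.62 and Ncor1 at 0.58.

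Over the 13 late libraries the log2 levels of Ncor1 and Nrip1 had a Pearson r of -0.69 (Spearman rho -0.60), which was -0.43 without the 2 libraries farthest from the median of Ncor1. With the mean of each group removed, r was -0.16 over the late libraries and 0.44 over all 17; the opposite group differences given above enter the value with group means left in. Over all 17 libraries r was 0.16 (rho 0.06), and 0.15 without the 4 libraries with transcripts of neighbouring organs or epithelium; the 4 early libraries were high in Ncor1, and 3 of them were also high in Nrip1. These correlations describe libraries that share their scaling and group structure and carry no p.

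**Figure D3:**
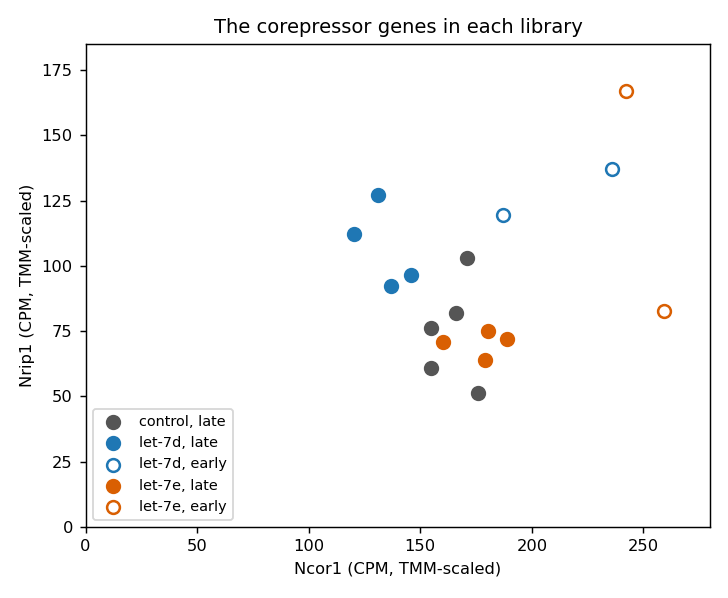
Ncor1 against Nrip1 in each library (both in CPM, TMM-scaled, axes from 0), coloured by group, with open points for early identifiers. Late let-7d libraries occupy the upper left (Ncor1 at 120.3 to 146 CPM, Nrip1 at 92.1 to 127 CPM), late let-7e libraries the lower middle, and the early libraries mostly the right. Early let-7d 1 (Ncor1 at 187 CPM) lies just left of late let-7e 4 (189 CPM).

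Early and late libraries were compared next. The genes were not chosen by this contrast, but it rests on the same libraries, and their level in each library was known at the choice. The adjusted p-values given for the 6 genes are therefore not independent of that choice. Rxra, Cebpa and Ncor1 changed: Rxra and Cebpa were lower and Ncor1 higher in the early libraries. Of all genes 12.2% passed this comparison, 5.46% higher and 6.72% lower, against 3 of the 6 genes. DESeq2 called 16% of genes in the same contrast. Within let-7d alone 8.25% and within let-7e alone 2.98% of genes passed, and the difference between these was called for 0 genes (0%). The labels do not say what the identifier series stand for, and since no control is early, the contrast is carried by the injected libraries.

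The summed level of the 5 endothelial markers did not overlap either, at 794 to 1146 CPM (median 929.9) in the early and 1213 to 1559.6 CPM (median 1292) in the late injected libraries, whereas the fat cell markers overlapped (22362 to 38944 against 31713 to 52022 CPM). The part of cell content in this contrast was not tested.

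Rxra stood at 177, 226, 231 and 227 CPM in the 4 early libraries and at 289 to 376 CPM, with a median of 341, in the 8 late injected ones. The groups did not overlap, as 6.13% of genes lay wholly lower in the early libraries. The log2 fold change was -0.63 (SE 0.118; edgeR adjusted p = 0.00233), and it was -0.72 (adjusted p = 0.00961) within let-7d and -0.52 (adjusted p = 0.0632) within let-7e. Cebpa stood at 670.3, 1115, 1102 and 980 CPM against 1255 to 1844 CPM, median 1487, again without overlap. Its log2 fold change was -0.62 (SE 0.186; edgeR adjusted p = 0.0386), with -0.79 (adjusted p = 0.0301) within let-7d and -0.44 (adjusted p = 0.283) within let-7e. The call of Cebpa was lost on leaving out any 1 of let-7d 1, 2, 3, 4 and 6 and let-7e 2, 5 and 6, with edgeR adjusted p-values from 0.0121 to 0.154 over the 17 libraries left out, the highest without let-7d 1 (log2 fold change -0.46). Rxra kept its call throughout, at adjusted p-values of 0.00105 to 0.0146.

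Ncor1 stood at 187, 236, 242 and 259 CPM in the early libraries, and of the late injected ones let-7e 4, at 189 CPM, reached into that range. Its log2 fold change was 0.58 (SE 0.0779; edgeR adjusted p = 0.000156), and it passed within let-7d (0.70, adjusted p = 0.00423) and within let-7e (0.49, adjusted p = 0.0427). Nrip1 had 0.56 (SE 0.192; edgeR adjusted p = 0.0744), and 0.25 without let-7e 1, its highest library. Cebpb had -0.45 (SE 0.201; edgeR adjusted p = 0.174) and Pparg -0.08 (adjusted p = 0.833). For none of the 6 genes did the difference between early and late pass a test between let-7d and let-7e (edgeR interaction, smallest adjusted p 0.988), which with 2 early libraries in each group is a coarse test.

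The early libraries also differed in how level went with GC content. On the log2 scale, levels relative to each gene's mean over all libraries changed by -0.275 to -0.214 per 10 percentage points of transcript GC in the 4 early libraries and by 0.017 to 0.129 in the 13 late ones. By quintile of the 11231 genes that averaged 5 CPM or more, the median log2 fold change of early against late went from 0.19 in the genes of lowest GC to -0.34 in those of highest GC, and from -0.13 in the shortest to 0.18 in the longest transcripts. Cebpb (67.15% GC), Cebpa (62.6%) and Rxra (57.04%) are GC-rich, above 99.8%, 98.8% and 87.5% of genes. Ncor1 (48.47%) and Nrip1 (43.61%) are under the median of 49.65%, and with 9037 and 7868 bases their transcripts are longer than those of 96.8% and 94.6% of genes. Pparg has 50.21% GC and 2125 bases.

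With each library's trend with GC content and length taken out, none of the 6 genes passed. Rxra had -0.40 (edgeR adjusted p = 0.298), Cebpa -0.16 (0.847), Cebpb 0.04 (0.965), Ncor1 0.36 (0.125), Nrip1 0.28 (0.665) and Pparg -0.10 (0.892). Over all genes 301 (1.83%) were then called. The part of GC content and length in the difference cannot be told apart from other differences between the series.

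**Figure D4:**
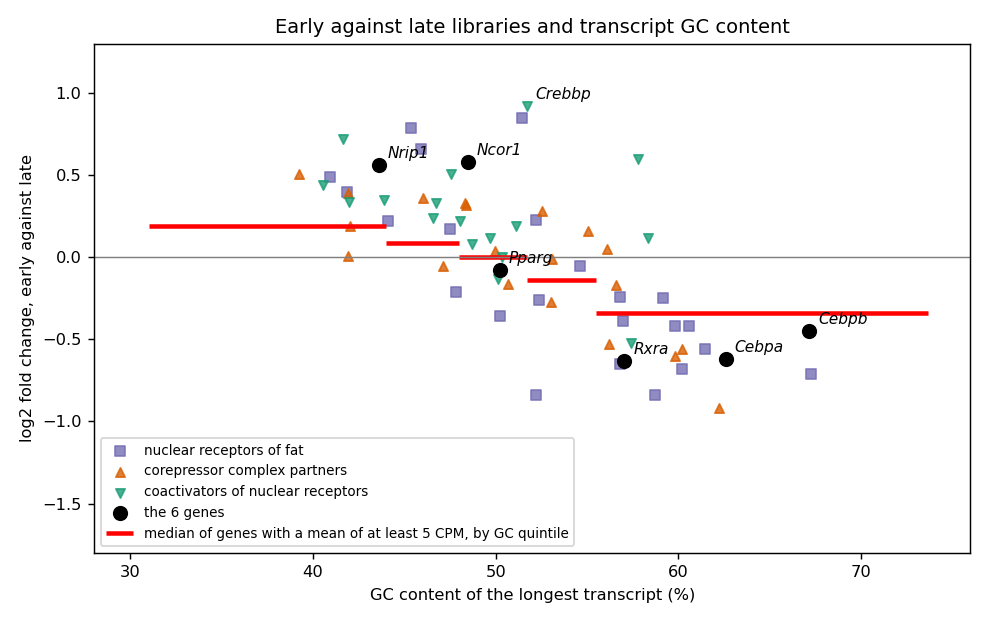
Log2 fold change of early against late libraries against the GC content of the longest transcript (%) for the 6 genes (black), nuclear receptors (squares), corepressor partners (upward triangles) and coactivators (downward triangles); red lines are the medians of the 11231 genes averaging 5 CPM or more, by quintile of GC content. The medians go from 0.19 to -0.34, and Rxra, Cebpa and Cebpb lie under the median of their quintile while Ncor1, Nrip1 and Crebbp lie above theirs.

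The promoters of the C/EBP genes are shown because these 2 genes have the highest GC content of the 6. They are from RefSeq for GRCm38.p6, 300 bases each, from 250 before to 50 after the start, on the plus strand, with motif letters in capitals. Cebpa at chr7:35119043-35119342 has 67.3% GC, with TTGCG, part of the site that C/EBP proteins bind, at base 66 and TATAAA at base 221 in capitals. Cebpb at chr2:167688665-167688964 has 80.7% GC, with TGACG or its complement CGTCA, the core bound by CREB, at bases 71, 198 and 244 and TATAAA at base 272 in capitals.
Cebpa: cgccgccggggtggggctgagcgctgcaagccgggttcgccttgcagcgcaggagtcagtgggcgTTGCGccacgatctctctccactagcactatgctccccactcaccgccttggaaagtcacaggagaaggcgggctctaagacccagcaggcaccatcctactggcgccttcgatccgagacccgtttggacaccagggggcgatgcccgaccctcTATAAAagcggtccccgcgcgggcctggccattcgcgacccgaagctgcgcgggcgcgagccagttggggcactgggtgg
Cebpb: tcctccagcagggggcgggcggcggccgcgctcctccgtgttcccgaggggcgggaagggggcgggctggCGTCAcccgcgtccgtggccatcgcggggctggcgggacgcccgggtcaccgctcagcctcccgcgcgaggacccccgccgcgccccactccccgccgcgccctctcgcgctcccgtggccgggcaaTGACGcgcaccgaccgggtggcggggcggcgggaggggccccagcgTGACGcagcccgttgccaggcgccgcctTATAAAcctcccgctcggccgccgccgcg
Both strands were searched, and of 32851 promoters of that length 17.4% held TTGCG, 20.8% TGACG and 13.6% TATAAA. The GC box GGGCGG was also searched and is not in capitals. It had 5 matches in the Cebpb promoter and 0 in that of Cebpa, and 35.7% of promoters held it. A match is a description of letters and says nothing on binding in this tissue.

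The other genes of these pathways were read from 10 lists drawn from textbook knowledge. None of their genes passed in the 3 group comparisons, where edgeR called 0 of all genes, and the values that follow are those of the genes with the smallest p in each list. Every adjusted p of edgeR behind them was at least 0.356. Medians of 3 values are given for let-7d and then let-7e against control, followed by let-7e against let-7d, and over all genes they were -0.04, -0.04 and -0.01.

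Among the 27 measured targets of PPARG in the mature fat cell the median log2 fold changes were -0.13, 0.09 and 0.27. With let-7d 21 of the 27 had a value under 0, beside 9465 of all 16452 genes. Pnpla2, the triglyceride lipase ATGL, had -0.57 (SE 0.225; edgeR adjusted p = 0.468) for let-7d against control and 0.52 (SE 0.204; edgeR adjusted p = 0.7) for let-7e against let-7d. Dgat2, which makes triglyceride, had 0.63 (SE 0.341) with let-7d. The malic enzyme Me1 had -1.18 (SE 0.574) with let-7e, and -0.56 without control 1, where it stood at 3933 CPM beside a median of 822 CPM. Angptl4, an inhibitor of lipoprotein lipase, had 0.32 (SE 0.161) with let-7e, and the growth factor Fgf1 -0.30 (SE 0.254) in let-7e against let-7d.

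Among 20 corepressor partners the medians were -0.02, 0.03 and 0.01. Hdac3, the deacetylase of the NCOR1 complex, had -0.02 with let-7d and 0.04 with let-7e. The transcriptional repressor Bcl6 had 1.09 (SE 0.384; edgeR adjusted p = 0.456) with let-7d, and 0.80 without let-7d 6, its highest library at 123 CPM. Tbl1xr1, a subunit of the NCOR1 complex, had -0.22 (SE 0.0703; edgeR adjusted p = 0.356) with let-7e. The class II deacetylases Hdac4 and Hdac7 had -0.20 with let-7d and 0.21 with let-7e, and Rcor1 had 0.15 in let-7e against let-7d.

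Of 17 coactivators 14 had a value under 0 with let-7d and 14 a value above 0 in let-7e against let-7d, with medians of -0.09, -0.03 and 0.06. Of all 16452 genes, 9465 and 7713 did so, and both coactivator counts share the let-7d libraries. Ncoa1, the steroid receptor coactivator, had 0.26 (SE 0.0969; edgeR adjusted p = 0.7) in let-7e against let-7d. Nsd1, a histone methyltransferase, had 0.27 (SE 0.0956) with let-7d and 0.17 with let-7e, and the mediator subunits Med14 and Med1 had -0.26 with let-7d and -0.13 with let-7e. Among 23 nuclear receptors the medians were -0.07, 0.00 and 0.04. Rara, the retinoic acid receptor, had 0.38 (SE 0.127; edgeR adjusted p = 0.456) with let-7d and 0.21 with let-7e. Thrb had 0.31 in let-7e against let-7d, and Vdr -1.23, which was -0.56 without let-7d 3.

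Among 21 pro-adipogenic factors the medians were 0.05, 0.04 and 0.03, and among 22 anti-adipogenic factors 0.02 in each comparison. Zfp467, which favours fat over bone, had 0.35 (SE 0.161) with let-7d and 0.39 (SE 0.164) with let-7e. Ebf2, a factor of brown and beige fat cells, had 0.46 (SE 0.16; edgeR adjusted p = 0.7) in let-7e against let-7d. Sirt1, the deacetylase that represses PPARG, had -0.35 (SE 0.086; edgeR adjusted p = 0.456) for let-7d against control, and Tsc22d3 (GILZ), a glucocorticoid-induced inhibitor of adipogenesis, 0.74 (SE 0.215; 0.456). Wwtr1 (TAZ), a coactivator of the Hippo pathway, had 0.34 (SE 0.123) with let-7e. Klf5 had -2.47 with let-7e, and -0.33 without the 4 libraries with transcripts of neighbouring organs or epithelium. Gata3 had -4.41 with let-7e but -0.40 without control 3, which held it at 123 CPM beside a median of 1.16 CPM.

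Medians of the remaining lists were 0.02, -0.16 and -0.15 for 11 thermogenic genes, -0.02, -0.16 and 0.02 for 12 acute phase and cytokine genes, -0.06, 0.04 and 0.05 for 18 immediate early genes and -0.19, -0.30 and -0.11 for 13 glucocorticoid response genes. Several of their extreme values rested on 1 library. Ckmt1 had 3.56 with let-7d and 1.83 without let-7d 3, Cidea -1.51 with let-7d and -0.70 without control 1, and Fabp3 -2.39 with let-7e and -1.12 without control 3. Lcn2 had -1.50 with let-7e and -0.40 without control 3. Crem had -0.91 with let-7d and -0.92 with let-7e, and 0.18 and 0.09 without the 4 libraries. Hp, which encodes haptoglobin, had 0.72 (SE 0.282) with let-7e, Klf6 0.34, the metallothionein Mt1 -0.76 (SE 0.239), and Adrb3, the beta-3 adrenergic receptor, 0.42 (SE 0.215). Without the 4 libraries Hp had 0.97, Klf6 0.40, Mt1 -0.40 and Adrb3 0.22 with let-7e.

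In early against late the lists held genes called in both directions, where 5.46% of all genes were higher and 6.72% lower. Of the 23 nuclear receptors 6 fell in the early libraries and 3 rose, with a median of -0.25 beside 0.00 over all genes. With the GC and length trend taken out, 1 fell and 0 rose, with a median of -0.02. Ppard (-0.84, edgeR adjusted p = 0.000219), Rxrb (-0.56, 0.000358), Rarg (-0.84), Nr2f6 (-0.71), Nr1h2 (-0.42) and Thra (-0.42) fell, and Rora (0.49) and Ppara (0.85) were among those that rose. Rxrb, the paralog of Rxra, thus changed in the same direction as Rxra.

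Of the corepressor partners 4 rose and 4 fell, with a median of 0.02, and 0 rose and 1 fell with the trend taken out (median 0.03). Tbl1xr1 (0.39) and Tbl1x (0.36), exchange factors of the NCOR complexes, rose, as did Zbtb33 (0.51) and Rcor1 (0.32), and Ctbp1 (-0.53), Hdac5 (-0.60) and Hdac7 (-0.56) were among those that fell. Of the 17 coactivators 5 rose and 1 fell, with a median of 0.24, and 1 rose and 0 fell with the trend taken out (median 0.06). Crebbp, the histone acetyltransferase CBP, had 0.92 (edgeR adjusted p = 2.2e-06), and 0.73 (adjusted p = 0.00081) with the trend taken out. Kmt2c (0.51), Med13 (0.44), Tgs1 (0.34) and Med1 (0.33) also rose, and Carm1 (-0.52) fell.

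Of the pro-adipogenic factors Nfia (0.71), Ebf1 (0.52), Nfib (0.43) and Creb1 (0.32) rose and Tfe3 (-0.54) fell. Klf7 (0.49) and Sirt1 (0.29) rose and Klf2 (-1.07) fell among the anti-adipogenic factors. Lipe, the hormone-sensitive lipase, was the 1 target of PPARG that changed (-0.58, edgeR adjusted p = 0.0327). Of the 27 targets 20 had a value under 0, beside 8136 of all 16452 genes, and the median was -0.29. Among 18 immediate early genes Jun (-0.78), Junb (-0.68) and Ier2 (-0.66) fell and Klf6 (0.61) rose, with a median of -0.31. Socs3 (-0.72) fell among 12 acute phase and cytokine genes, and no thermogenic or glucocorticoid response gene passed. On leaving out each library in turn, the calls of Ebf1, Nfib, Sirt1, Klf2, Rora, Ppara, Zbtb33, Tbl1x, Rcor1, Med1, Lipe, Socs3 and Junb were lost at least once. With the GC and length trend taken out, 0 of the pro-adipogenic factors rose and 1 (Tfe3) fell, and Nfia had 0.38 (edgeR adjusted p = 0.275). In each of the anti-adipogenic, PPARG target, immediate early and acute phase lists 0 genes rose and 0 fell. The medians were then -0.19 for the PPARG targets and -0.20 for the immediate early genes. Ppard and Crebbp were among the genes of the other lists still called.

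Across the 17 libraries Rxra and Cebpa had a Pearson r of 0.86 (rho 0.77) in log2 CPM, which was 0.77 without the 2 libraries farthest from the median, and 0.68 (rho 0.54) over the 13 late libraries, which fell to 0.10 without the 2 farthest libraries. Pparg and Cebpa had 0.62 over all (0.27 without the 2 farthest) and 0.81 over late libraries (0.65 without the 2 farthest). Pparg and Rxra had 0.52 (0.27) and 0.82 (0.55) in the same order, Pparg and Cebpb 0.63 (0.45) and 0.71 (0.20), Rxra and Cebpb 0.63 (0.42) and 0.31 (0.13), and Cebpa and Cebpb 0.74 (0.51) and 0.54 (0.38). The level of fat cell markers went with Cebpa at 0.76 (0.34) and 0.66 (0.04), with Rxra at 0.67 (0.48) and 0.58 (0.14), and with Pparg at 0.62 (0.01) and 0.61 (0.36). For Cebpb the values were 0.44 (0.31) and 0.12 (-0.40), for Ncor1 0.04 (-0.02) and 0.42 (0.33), and for Nrip1 -0.21 (-0.26) and -0.02 (0.07). Without the 4 libraries with transcripts of neighbouring organs or epithelium, Pparg and Cebpa had 0.26 and Pparg and Rxra 0.17. Pparg and Cebpb then had 0.73, Rxra and Cebpa 0.74, Cebpa and Cebpb 0.57, and Rxra and Cebpb 0.48. With the same libraries left out, fat cell markers went with Cebpa at 0.37, Rxra at 0.35 and Pparg at -0.17. For Cebpb, Ncor1 and Nrip1 the marker values were -0.23, 0.0 and -0.60.

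Of the genes that averaged 5 CPM or more, the genes most like each regulator over the 17 libraries were named by the highest r. Predicted genes, pseudogenes and genes without a symbol were left out of this choice. For Pparg these were Cib2 (0.884), Irs3 (0.868) and Dnajc14 (0.867). Rxra had Mapkapk2 (0.956), Rbck1 (0.947) and Ppp1r9b (0.944), and Cebpa had Mknk2 (0.932), Mfng (0.932) and Fam57b (0.93). Cebpb had Cdc34 (0.853), Fbxl8 (0.805) and Bloc1s4 (0.789). Ncor1 had Crebrf (0.953), Gatad2b (0.932) and Ankrd11 (0.922), and Nrip1 had Fam110c (0.908), Nfib (0.884) and Hmgn2 (0.838). Over the 13 late libraries the r of these 18 genes lay between 0.674 (Bloc1s4) and 0.926 (Irs3).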

How the data were processed

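RNA sequencing of whole eWAT gave 17 libraries (5 control, 6 let-7d, 6 let-7e). Per the labels' protocols each library began with 1 ug of total RNA isolated in TRI reagent and was read on an Illumina NovaSeq. The deposited values are unnormalised counts of reads for each Ensembl gene. Per the submitters' processing notes STAR was the aligner and GRCm38.p6 the genome of the authors, and the counting tool and the threshold of the CPM filter are not given in the sources used here. A second deposited table, named RPKM, was not used because the gene length it implies differs between libraries for the same gene. Identifiers of 16432 genes matched GENCODE M21 without the version number, and 20 did not.

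Counts were scaled with TMM, and edgeR 4.0.16 (R 4.3.3) quasi-likelihood tests were fitted to all 17 libraries with group and identifier series as terms. P-values are two-sided and Benjamini-Hochberg adjusted over 16452 genes, with a threshold of 0.05. The common biological coefficient of variation was 0.36, and a prior count of 2 went into log2 CPM. The fit was tested on simulated counts with planted group differences. Those counts held no difference between the identifier series and no trend with GC content, so the simulation does not cover these features of the data. The 6 genes and the lists were chosen with earlier results of these data known. Named list genes are those past the threshold and, in each list and comparison, the smallest p in each direction. Genes most like a member are the 3 with the highest r, with predicted genes and pseudogenes left out. Hdac3 in the group comparisons was named after its values were seen. Some genes that this rule gives are not reported here. Alternatives were DESeq2 1.42.0 (size factors and Wald test), limma-voom (limma 3.58.1), a mean of at least 5 CPM, late libraries alone, a fit without the series term, a fit of the compared groups alone, a replicate block, and leaving out libraries. A trend with transcript GC content and length (splines with 5 degrees of freedom, set by genes over 1 CPM) taken out of each library, and the tests within let-7d and let-7e, were added after seeing the data. Counting precision rests on library totals between 12717365 and 28972306.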

Additional observations from a re-analysis of the deposited data

Results flagged for a closer look

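Nrip1 in let-7e 1 stood at 167 CPM, apart from the other 5 let-7e libraries, which lay between 63.8 and 82.7 CPM. The gap to the nearest library made up 0.817 of the range of the group. This is above Dixon's 95% critical value (0.625 for 6 samples), used here only as a flag, since these levels were known at the choice. The group also mixes the series: let-7e 1 and let-7e 2 (82.7 CPM) are early, and the late libraries lay between 63.8 and 74.9 CPM. Among 18 combinations of gene and group it was the 1 value that stood out in this way. Chance flags about 1 in 20, which is near 1 of 18. Without let-7e 1 the log2 fold change of Nrip1 was -0.61 for let-7e against let-7d and 0.25 for early against late.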

How the results depend on the processing

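At an adjusted p of 0.05 edgeR called 0 genes in each group comparison, also on leaving out each library in turn (0 to 0), and unadjusted p-values under 0.05 numbered 1676, 1729 and 1097. The DESeq2 Wald test called 10, 15 and 14 genes. Early against late gave 2005 genes, 1260 to 2326 on leaving out single libraries (1260 without let-7d 1) and 301 with the GC and length trend taken out. With a replicate block and the series term 44 were called, and with a replicate block without the series term 1 gene was called for let-7d against control. Whether replicate numbers pair the samples was not settled. Of 16 same-numbered pairs across groups, 6 had deviations from the group mean correlated over 0.1. Their r ran from -0.376 to 0.481, and the median for other pairs was 0.039. The deviations keep the difference between the series, so they cannot decide this. Replicates 1 and 2 are early with let-7d and let-7e but late in controls. Under the replicate block Rxra (-1.01, edgeR adjusted p = 0.0501), Cebpa (-0.96, 0.214) and Ncor1 (0.60, 0.126) were not called. Pparg in early against late turned sign without let-7d 1 (0.04, in a range of -0.13 to 0.04 over single libraries) and without the 4 libraries with transcripts of neighbouring organs or epithelium (0.00), and Cebpb with the GC and length trend taken out (0.04). Nrip1 in early against late passed with a mean of at least 5 CPM (0.58, edgeR adjusted p = 0.0391), with only the groups compared (0.57, 0.0389), without the 4 libraries (0.65, 0.041) and by DESeq2 (0.56, 0.0368); over all libraries left out singly its adjusted p ran from 0.0424 to 0.396. In the 28 alternatives of each group comparison Ncor1 and Nrip1 kept their sign between let-7e and let-7d (0.32 to 0.41 and -0.61 to -0.34). The cause of these changes was not tested. With 2 early libraries per injected group and no early control, the series and other differences between those libraries cannot be told apart.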
